A study of Mus musculus with 12 samples.

Results

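Pericyte and vascular smooth muscle genes were followed through 12 mouse brain gliomas, 6 with Tlx knocked out and 6 with Tlx intact. The set holds 10 genes, chosen by name as mural cell genes: the 6 pericyte markers Rgs5, Kcnj8, Abcc9, Vtn, Anpep and Higd1b, and the 4 contractile genes Acta2, Tagln, Myh11 and Des. On the Illumina bead array they are represented by 20 of the 45135 probes. Probes with a detection p-value below 0.05 on at least 3 arrays were kept, which left 14 of the 20, and each gene was then read from its probe with the highest mean. In this way 9 of the 10 genes were among the 14155 genes tested. Both Myh11 probes failed the filter.

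The knockout group (n = 6) were C57BL/6 mice with both Tlx alleles floxed, a Nestin-driven Tva receptor and a tamoxifen-activated CreERT under the Nestin promoter, labelled CRE+. The intact group (n = 6) were littermates of the same floxed Tlx and Tva genotype labelled CRE-. Tamoxifen was injected from 2.5 weeks after tumour initiation, once tumours were established, and the groups differ in the presence of Cre as well as in Tlx. The genotype strings give the CreERT transgene a different number in every animal, while the design text names CreERT2 throughout. Tumours came from animals with severe symptoms, at an age of 48 to 79 days in the knockout group and 38 to 51 days in the intact group. Deletion depends on Nestin promoter activity, and each array measured excised tumour tissue of 1 animal with all its cell types, so fewer cells of a type and less RNA per cell cannot be told apart. The sources used here do not give the agent that started the tumours.

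Mural cells wrap the endothelial tube of brain vessels. Pericytes sit on capillaries inside the vascular basement membrane and are known in brain for their part in the blood-brain barrier, while smooth muscle cells ring arterioles and carry a contractile apparatus of smooth muscle actin, myosin and actin-binding proteins. Endothelial Pdgfb recruits pericytes through the receptor Pdgfrb, and serum response factor is known to drive contractile genes through a short promoter element called the CArG box. In tumours, vessels often carry an incomplete or loosely attached mural coat.

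The arrays were alike in depth, with a median raw signal of 134.5 to 161.3 intensity units and 50.8% to 54.8% of probes detected. Of 8 glioma and progenitor genes, 8 of 8 passed the detection filter. With no tumour-free brain among the arrays, this cannot test the glioma label. Their differences, knockout minus intact, all lay above 0 (median 0.17, 0 called). The smallest unadjusted p by limma were those of Nkx2-2, Olig1, Olig2 and Nes (differences of 0.65, 0.20, 0.41 and 0.32). Nr2e1, the gene of Tlx, averaged 5.55 ± 0.54 log2 units in knockout tumours and 6.14 ± 0.44 in intact ones (SD, 6 tumours each). Its difference was -0.58 (SE 0.26, limma adjusted p = 0.405), and whether the probe lies in the floxed part is not known here. 2 features of the sample set bear on all results. In the deposited table the first 6 array columns hold 5 knockout tumours and 1 intact tumour, and the last 6 hold 1 and 5. The label numbers of 5 animals, knockout replicates 2, 5 and 6 and intact replicates 1 and 2, begin with 56, and no other number series holds both groups.

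None of the 9 tested members passed the adjusted threshold of 0.05 in either direction. By limma over all 14155 genes, 1 gene was called higher (0.00706%) and 1 lower (0.00706%), 0.0141% in either direction, and neither is a member. At an unadjusted p below 0.05 limma gave 2 of the 9, Rgs5 and Kcnj8, both lower in knockout tumours, where 5.72% of all genes tested were lower and 6.22% higher by the same rule. The pericyte markers had a median difference of -0.35 log2 units, knockout minus intact, with 5 of 6 below 0. For the contractile genes that median was 0.20, 3 of 3 being above 0, and over all genes tested it was -0.0026. The pericyte median was -0.17 without knockout replicate 4, where Higd1b also turned positive, and -0.15 with the column position as a block. The contractile median lay between 0.092 without knockout replicate 1 and 0.32 without intact replicate 1 or 2, was 0.30 without knockout replicate 4, and was 0.11, 0.12 and 0.11 without intact replicates 4, 5 and 6. With the column position as a block it was 0.74, and with the label series as a block -0.42.

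**Figure D1:**
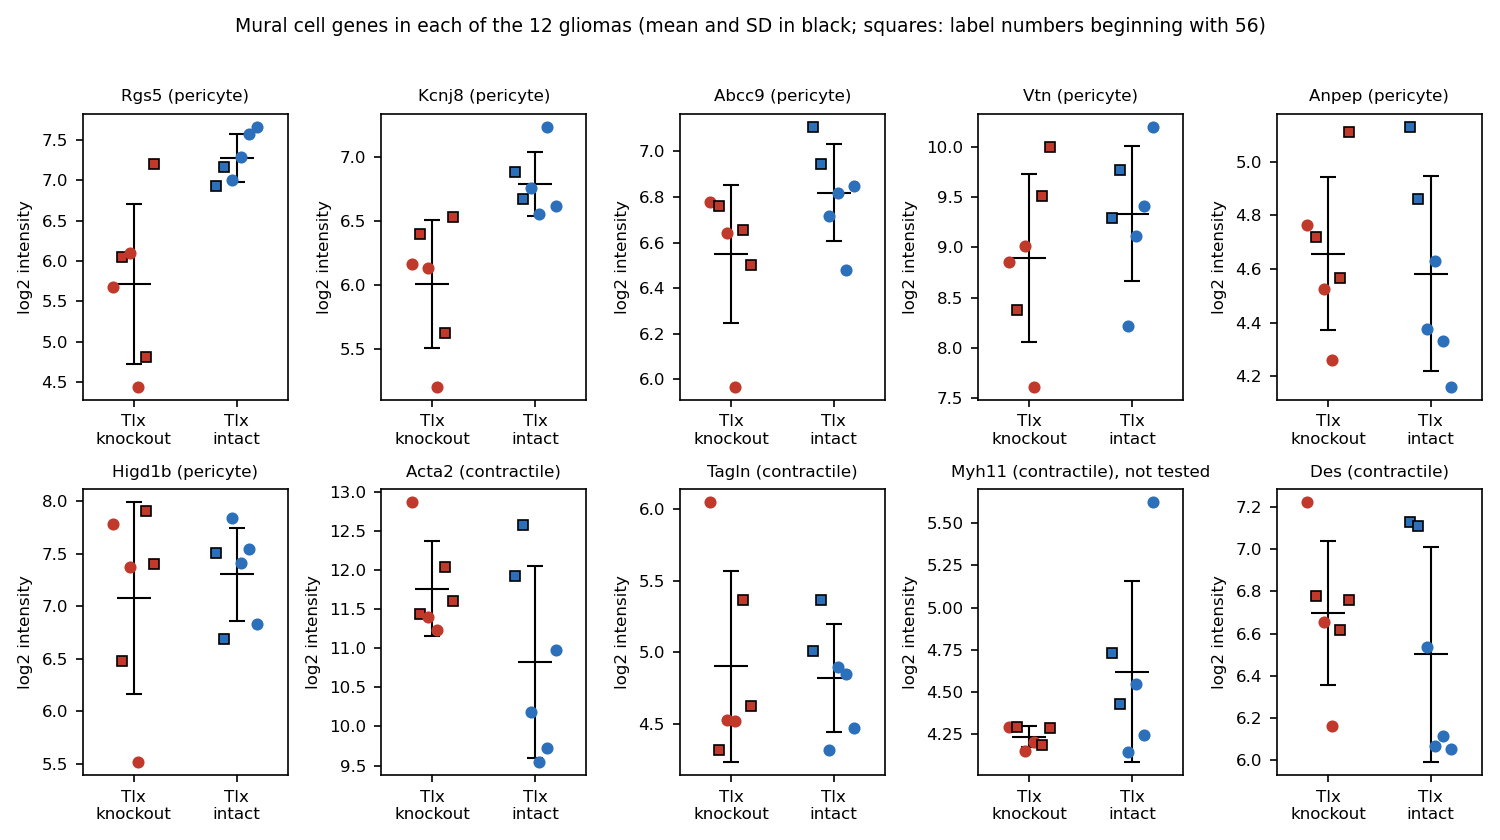
Normalized log2 intensity of each member (vertical axes, separate scales) in each glioma, with Tlx-knockout tumours in red on the left and Tlx-intact tumours in blue on the right of every panel. Points are arrays, black bars give mean and SD (n = 6 each), squares mark label numbers beginning with 56, and Myh11 is drawn from its probe ILMN_2622217. Rgs5 and Kcnj8 sit lower in most knockout tumours, and Acta2 splits the intact tumours, with replicates 1 and 2 high.

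Rgs5, a regulator of G-protein signalling and one of the most used pericyte markers, showed the widest difference of the set. Its log2 intensity had a lowest value of 4.44, a median of 5.86 and a highest value of 7.21 in knockout tumours, against 6.93, 7.23 and 7.66 in intact tumours. Of the 6 knockout tumours 5 lay below every intact tumour, and knockout replicate 6, at 7.21, lay within the intact range. The difference of -1.56 (SE 0.37, 95% interval -2.36 to -0.76) left knockout tumours at 34.0% of the intact normalized intensity, but the limma adjusted p was 0.202. Knockout tumours also varied more, with an SD of 0.99 against 0.30 (n = 6 each). The probe was undetected on knockout replicate 4, so its level there is a background reading. Raw Rgs5 signals ran from 125.3 to 299.4 intensity units, and without background correction the difference was -0.63 on the log2 scale.

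Kcnj8, which encodes the pore subunit Kir6.1 of the ATP-sensitive potassium channel of pericytes and vascular smooth muscle, was the only member of the 9 with fully separated groups. It read 5.20 to 6.53 with a median of 6.15 in knockout tumours and 6.56 to 7.24 with a median of 6.71 in intact tumours. The gap between the highest knockout and the lowest intact tumour was narrow. Groups separated in this direction for 0.219% of all genes tested. The difference was -0.78 (SE 0.22, 95% interval -1.25 to -0.31), or 58.3% of the intact normalized intensity, with a limma adjusted p of 0.212. Kcnj8 was detected on all arrays, but its raw signals were low, from 141.5 to 256.8 intensity units. Without background correction its difference was -0.31 on the log2 scale.

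Rgs5 and Kcnj8 varied together across tumours, with Pearson r = 0.92 (permutation p = 4.00e-05, adjusted over 4 relations 0.000160) and Spearman rho = 0.73 (permutation p = 0.00834, adjusted 0.0167) over 12 arrays. Within the knockout tumours r was 0.93, against 0.14 within the intact tumours (6 arrays each), whose values spanned a narrower range. Without knockout replicates 4 and 5, the arrays farthest from the Rgs5 median, r was 0.75. It was 0.96 within the first 6 columns and 0.70 within the last 6. The 4 relations were chosen with earlier results of these data known. Arrays were permuted across both groups, so the lower knockout values of both genes enter the permutation p-values. Among the 14154 other genes tested Kcnj8 ranked in place 6 for likeness to Rgs5 by Pearson r. The 5 genes above it were Rab15 (r = 0.94), Fhdc1 (0.93), Mast3 (0.92), Pde4b (0.92) and Fggy (0.92), chosen for their r and therefore given without a p. All 5 had negative differences, from -1.28 for Rab15 to -0.48 for Pde4b, and none passed limma's adjusted threshold. Rgs5 also ran with markers of other cell types: over the 12 arrays its r was 0.77 with the mean of the neuron markers, 0.75 with that of the astrocyte markers and 0.68 with that of the myelin markers, against 0.18 with the mean of 13 further pericyte genes. These r values are descriptions over arrays that share their normalization, and the part of those cell types was not tested.

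Because these 2 genes were the most closely paired members, the 250 bases before the annotated start of each are shown, from RefSeq on build GRCm38.p6. Rgs5 lies at chr1:169655251-169655500 on the plus strand and Kcnj8 at chr6:142571615-142571864 on the minus strand. Capitals mark a CArG box with at most 1 mismatch. The box has 10 letters and reads the same as a pattern on both strands. In all, 7 of the 10 members have an entry in the promoter table.
Rgs5: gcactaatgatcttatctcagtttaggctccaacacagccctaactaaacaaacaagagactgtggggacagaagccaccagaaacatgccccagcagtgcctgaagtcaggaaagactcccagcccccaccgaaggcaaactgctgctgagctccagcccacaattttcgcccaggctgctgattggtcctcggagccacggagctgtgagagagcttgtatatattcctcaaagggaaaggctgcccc
Kcnj8: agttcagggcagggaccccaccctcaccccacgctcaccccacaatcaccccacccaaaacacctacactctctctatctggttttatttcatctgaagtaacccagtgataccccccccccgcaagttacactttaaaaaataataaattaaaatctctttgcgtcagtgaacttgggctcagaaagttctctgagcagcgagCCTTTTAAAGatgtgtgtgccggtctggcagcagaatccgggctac
The Rgs5 window holds no such match, and the Kcnj8 window holds 1, from 46 to 37 bases before the start. A match with at most 1 mismatch occurs in 18.6% of all 32851 promoter windows of this length and an exact one in 1.47%.

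Abcc9 encodes the sulphonylurea receptor subunit that assembles with Kir6.1, and its gene neighbours Kcnj8 on chromosome 6. Its tested probe (ILMN_3104271) read 5.97 to 6.78 with a median of 6.65 in knockout tumours, against 6.48 to 7.11 with a median of 6.83 in intact tumours. The groups overlapped, with 1 knockout tumour below the intact range, and the difference of -0.27 (SE 0.16, limma adjusted p = 0.543) did not pass. A further probe (ILMN_2623859), annotated to another RefSeq transcript, ran the other way at 0.83 (SE 0.35, limma adjusted p = 0.351 over all probes kept). Knockout arrays detected it in 6 of 6 cases and intact arrays in 2 of 6. Another probe of that same transcript (ILMN_1253491), near background with 1 of 6 knockout and 2 of 6 intact arrays detected, was at -0.25 (SE 0.25). Averaging the probes of Abcc9 turned its difference to 0.10.

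The other pericyte markers overlapped widely between the groups. Vtn, the matrix protein vitronectin, which in brain is a pericyte marker and is also abundant in liver and plasma, read 7.62 to 10.002 with a median of 8.93 in knockout tumours and 8.22 to 10.20 with a median of 9.36 in intact tumours, a difference of -0.44 (SE 0.39, limma adjusted p = 0.685). Higd1b, a small mitochondrial protein gene enriched in brain pericytes, had a median of 7.39 in knockout and 7.46 in intact tumours, with the lowest value of all 12 at 5.52 in knockout replicate 4. Its difference was -0.23 (SE 0.37, limma adjusted p = 0.839), and without knockout replicate 4 it was 0.087. Anpep, the aminopeptidase CD13 of pericytes, fibroblasts and myeloid cells, was above background on 1 of 6 knockout arrays and on 2 of 6 intact ones. Its difference of 0.075 (SE 0.19, limma adjusted p = 0.901) is one between signals near background.

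**Figure D2:**
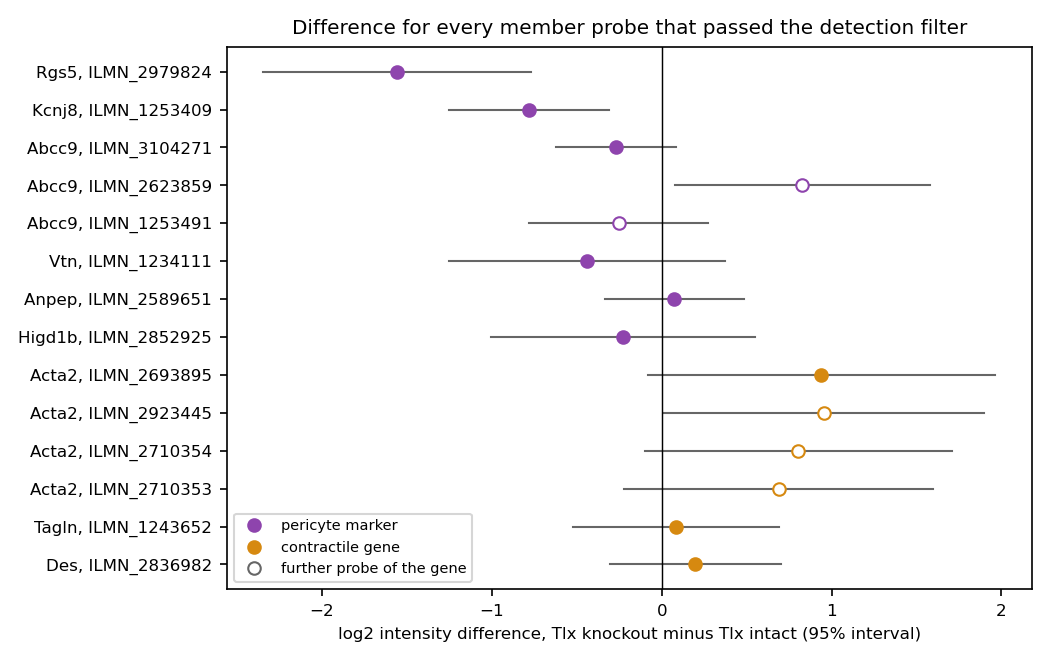
Difference in log2 intensity between Tlx-knockout and Tlx-intact tumours (horizontal axis, knockout minus intact) with its 95% limma interval, for the 14 member probes that passed the detection filter. Filled points are the probe used for the gene and open points its further probes, in purple for pericyte markers and orange for contractile genes. The intervals of Rgs5 and Kcnj8 lie below 0, and those of the further probes ILMN_2623859 of Abcc9 and ILMN_2923445 of Acta2 lie above 0. The 4 Acta2 probes lie between 0.69 and 0.95.

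Acta2, smooth muscle alpha-actin and the usual marker of arteriolar smooth muscle, pointed the other way from the pericyte markers. Its brightest probe read 11.23 to 12.87 log2 units with a median of 11.52 in knockout tumours, against 9.55 to 12.57 with a median of 10.58 in intact tumours. The groups overlapped: intact replicates 1 and 2, at 11.92 and 12.57, lay among the knockout tumours, while intact replicates 3 to 6, at 10.19, 9.55, 9.73 and 10.97, lay below all of them. The difference of 0.94 (SE 0.49, 95% interval -0.10 to 1.99, a 1.92-fold ratio) had a limma adjusted p of 0.468. The 3 further probes that passed the filter gave 0.95, 0.81 and 0.69, and 2 more probes were detected on 0 of 6 knockout arrays, and on 1 and 0 of 6 intact arrays. For the probe at 0.95 (ILMN_2923445) the 95% interval was 0.013 to 1.90 (limma adjusted p = 0.386 over all probes kept).

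The Acta2 difference varied with the number series of the animals. Among the 5 animals of series 56 the 3 knockout tumours averaged 11.69 and the 2 intact tumours 12.25, a difference of -0.56. Outside that series the knockout tumours averaged 11.83 and the intact tumours 10.11. Fitted with the series as a block, Acta2 was at -0.56 (SE 0.52, limma adjusted p = 0.999), and without the 5 animals of series 56 it was 1.72 (SE 0.47, limma adjusted p = 0.208). With the column position as a block it was 1.64 (SE 0.61, limma adjusted p = 0.546). Rgs5 kept its sign in all 3, at -1.03, -1.97 and -1.46, and Kcnj8 did so too, at -0.60, -0.96 and -0.70.

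Des, the muscle intermediate filament desmin, found in smooth muscle and in pericytes, followed Acta2 closely. It read 6.16 to 7.22 with a median of 6.71 in knockout tumours and 6.05 to 7.13 with a median of 6.32 in intact tumours. Its difference of 0.20 (SE 0.24, limma adjusted p = 0.775) was within the spread between tumours, and intact replicates 1 and 2, at 7.13 and 7.11, were again above the other intact tumours. Across the 12 arrays Des ranked in place 100 of 14154 genes for likeness to Acta2, with r = 0.82. Desmin is also made by striated muscle: of 10 skeletal and cardiac muscle markers 6 were tested, and their summed normalized intensity was 207.7 to 281.7 in knockout and 181.9 to 360.2 in intact tumours. The 4 of smallest p were Myog (0.65), Mylpf (0.51), Acta1 (-0.86) and Myl1 (-0.16), with 0 called, and Ckm, Tnnt3, Actc1 and Tnnc2 failed the filter. Myog rose above background in 4 knockout tumours but in 0 intact ones, and Acta1 did so in 2 knockout tumours and 5 intact ones. The differences of Myog and Acta1 therefore rest in part on background readings, which also enter the summed intensity.

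Tagln, the actin-binding protein transgelin, was close to background, with one probe detected on 2 knockout and 4 intact arrays and the other on 0 of 12. Its values ran from 4.32 to 6.05 with a median of 4.58 in knockout tumours and from 4.32 to 5.36 with a median of 4.87 in intact tumours. Mean and median pointed opposite ways, since knockout replicate 1, at 6.05, lifted the knockout mean. The difference in means was 0.083 (SE 0.28, limma adjusted p = 0.931), and -0.15 without knockout replicate 1. Myh11, the smooth muscle myosin heavy chain, was above background on 0 of 6 knockout arrays with either probe, and on 2 and 1 of 6 intact arrays. It was not tested.

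The 250 bases before the start of Acta2 and of Des are shown as those of the closest contractile pair, with CArG boxes of at most 1 mismatch in capitals. Acta2 lies at chr19:34255374-34255623 on the minus strand and Des at chr1:75360042-75360291 on the plus strand, both on build GRCm38.p6 from RefSeq.
Acta2: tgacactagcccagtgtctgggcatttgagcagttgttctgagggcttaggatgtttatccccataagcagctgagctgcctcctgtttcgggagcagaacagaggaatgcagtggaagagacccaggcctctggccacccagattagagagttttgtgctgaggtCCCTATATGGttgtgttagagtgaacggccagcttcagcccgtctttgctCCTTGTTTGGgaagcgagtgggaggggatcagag
Des: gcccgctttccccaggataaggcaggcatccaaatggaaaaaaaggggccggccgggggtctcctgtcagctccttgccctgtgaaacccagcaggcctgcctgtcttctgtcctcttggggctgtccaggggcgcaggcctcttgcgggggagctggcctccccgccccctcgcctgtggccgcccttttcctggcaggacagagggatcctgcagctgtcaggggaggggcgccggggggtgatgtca
The Acta2 window holds 2 matches, from 84 to 75 and from 34 to 25 bases before the start, each with 1 mismatch, and the Des window holds none. None of the 7 members with a promoter entry had an exact match, and Acta2 and Kcnj8 were the 2 of 7 with a match of 1 mismatch. Tagln, Myh11 and Higd1b have no entry and were not searched. A match is a description of these letters and not a measured binding site.

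Pericyte markers and contractile genes were then set side by side within each tumour. A mean was taken per tumour over the 6 pericyte markers and over the 3 tested contractile genes, each gene as its log2 deviation from its 12-array mean. The pericyte mean was -0.27 ± 0.54 in knockout tumours and 0.27 ± 0.11 in intact ones (SD, n = 6 each), a difference of -0.53 (SE 0.22), and 5 of 6 knockout tumours lay below all intact ones. The contractile mean was 0.20 ± 0.51 in knockout and -0.20 ± 0.64 in intact tumours, a difference of 0.41 (SE 0.33). The pericyte mean minus the contractile mean was thus -0.47 ± 0.58 in knockout and 0.47 ± 0.61 in intact tumours, a difference of -0.94 (SE 0.34), with no p because the genes were chosen with earlier results known. That difference was -0.96 within the first 6 columns and -1.65 within the last 6, each with a lone tumour on one side. Within series 56 it was 0.080, and with knockout and intact tumours of that series left out it was -1.59. Genes were not scaled, so those of widest difference, Rgs5 (-1.56) and Acta2 (0.94), weigh most in these means. Over the 12 arrays the pericyte mean had r = 0.87 with Rgs5, and the contractile mean r = 0.96 with Acta2. Each of these genes is a part of its mean.

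**Figure D3:**
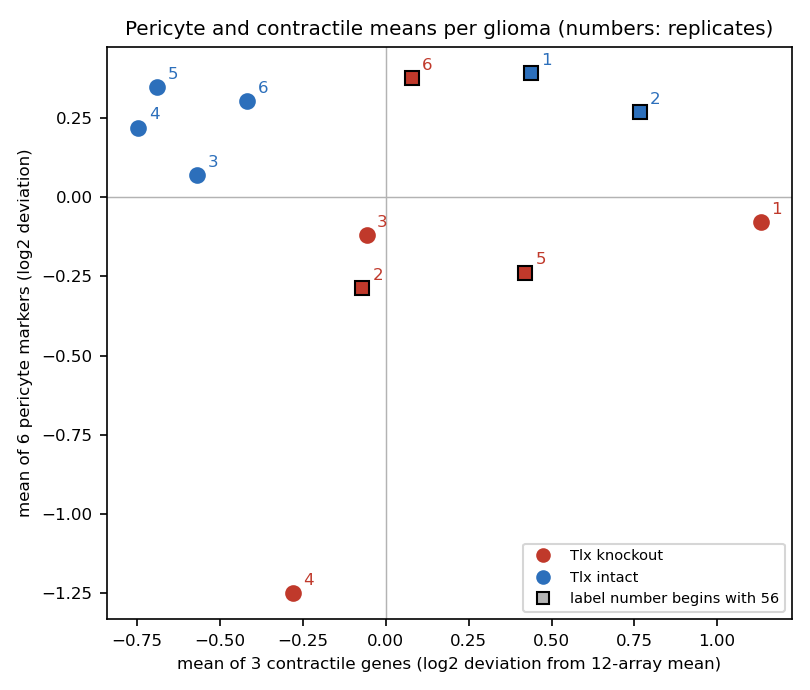
Mean of the 6 pericyte markers (vertical axis) against the mean of the 3 tested contractile genes (horizontal axis) in each glioma, both as log2 deviations from the 12-array mean. Red points are Tlx-knockout and blue points Tlx-intact tumours, numbers are replicates and squares mark label numbers beginning with 56. Intact replicates 3 to 6 lie at the upper left, intact replicates 1 and 2 at the upper right, and knockout replicate 4 far below at -1.25.

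Single tumours stood out. Knockout replicate 4 had the lowest pericyte mean, -1.25, and the lowest value of the 12 in Rgs5, Kcnj8, Abcc9, Vtn and Higd1b, but a contractile mean of -0.28. On the same array the receptor gene Pdgfrb was undetected, at 4.21 log2 units against 6.62 to 7.47 in the other knockout tumours. That array was also lowest in the means of the neuron (-2.10), astrocyte (-1.95) and myelin (-1.44) markers, while its endothelial mean was 0.056. Without it the differences were -1.30 for Rgs5, -0.62 for Kcnj8, -0.15 for Abcc9, -0.18 for Vtn and 0.087 for Higd1b, and the difference in pericyte means was -0.34. Knockout replicate 1 was highest in Acta2, Tagln and Des, and without it the difference in contractile means was 0.22. Its means of endothelial (0.56) and fibroblast (0.77) markers were the highest of the 12 as well. Knockout replicate 6 was the knockout tumour with the highest pericyte mean, at 0.38, within the intact range of 0.070 to 0.39.

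Within the set, pericyte markers had a positive r in 15 of 15 pairs, with a median Pearson r of 0.46 (0.13 to 0.92) over the 12 arrays, and the 3 contractile pairs had r between 0.54 and 0.82. Between the kinds the median r over 18 pairs was 0.18 (-0.42 to 0.77). Acta2 and Tagln had r = 0.59 (permutation p = 0.0447, adjusted 0.0759) and rho = 0.58 (permutation p = 0.0515, adjusted 0.0687), and r was 0.89 without intact replicates 4 and 5, 0.97 in knockout and 0.56 in intact tumours, and 0.70 and 0.71 within the first and the last 6 columns. Rgs5 and Acta2 had r = -0.42 (permutation p = 0.174, adjusted 0.174) and rho = -0.51 (permutation p = 0.0935, adjusted 0.0935). That r was -0.55 without knockout replicates 4 and 5, -0.030 in knockout tumours, -0.37 in intact tumours, and -0.43 and -0.68 within the first and the last 6 columns. Genes with a pattern most like Acta2 were Pml (r = 0.94), the pericyte-recruiting ligand gene Pdgfb (0.92), Myadm (0.92), Washc3 (0.91) and Adcy4 (0.91), again chosen for their r. With list means, the r of Acta2 was 0.96 for 17 further contractile genes, 0.89 for endothelial and 0.64 for fibroblast markers. It was 0.43 for the further pericyte genes and 0.054 for the neuron markers. The part of those cell types was not tested.

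**Figure D4:**
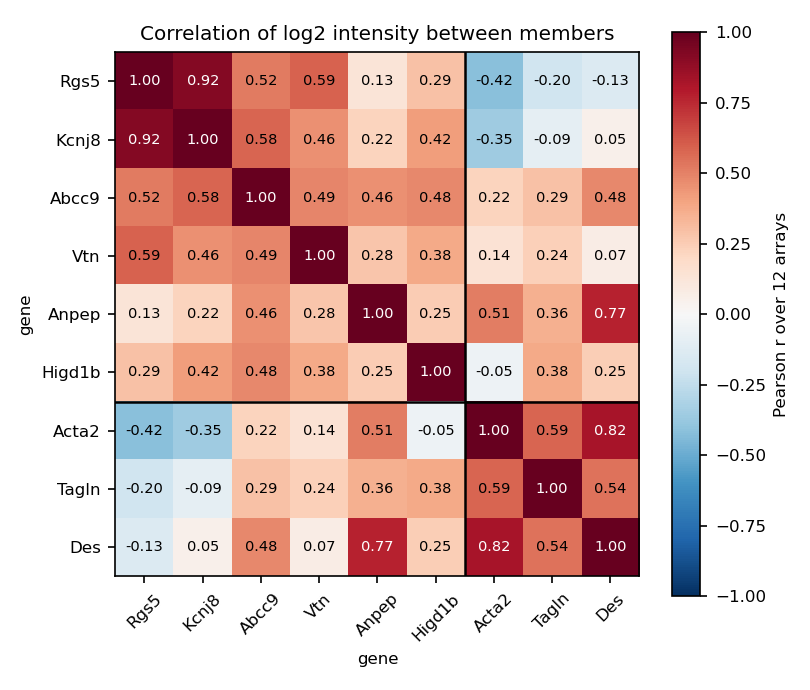
Pearson correlation of log2 intensity over the 12 arrays between the 9 tested members, in colour and as a number, with black lines between pericyte markers and contractile genes. The highest values are 0.92 for Rgs5 with Kcnj8 and 0.82 for Acta2 with Des, and the lowest is -0.42 for Rgs5 with Acta2.

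Other genes of the mural programme were read from lists of named pericyte, contractile and recruitment genes. Of 18 further pericyte genes 13 were tested, 0 were called in either direction (0.00706% of all genes in each), and 5 lay above 0. Their median was -0.017. Cspg4, the proteoglycan NG2 of pericytes and oligodendrocyte progenitors, was at 0.71 (SE 0.28) and the adhesion molecule Mcam at 0.60 (SE 0.25), both against the direction of Rgs5. These were the 2 of the 13 that were higher at an unadjusted limma p below 0.05 (6.22% of all genes tested). By the same rule 0 of the 13 were lower (5.72% of all genes tested). Rgs4, a relative of Rgs5 that neurons also make, was at -0.64 (SE 0.41). Cox4i2 was at -0.18, near background, with 1 of 6 knockout and 2 of 6 intact arrays detected. The limma adjusted p-values of Cspg4, Mcam, Rgs4 and Cox4i2 lay between 0.340 and 0.777, and the Pdgfrb difference was 0.31 (SE 0.45). Without knockout replicate 4, where Pdgfrb was undetected, it was 0.77, and it was 0.11 without knockout replicate 1, 0.15 without knockout replicate 5 and 0.47 without intact replicate 1.

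Of 20 further contractile genes 17 were tested, with 14 above 0, a median of 0.26 and 0 called. Tpm1, a tropomyosin, read 11.44 to 12.31 in knockout tumours against 10.33 to 11.49 in intact tumours, a difference of 0.98 (SE 0.22, limma adjusted p = 0.193), and its further probe was at 1.53. Csrp1, a LIM protein of smooth muscle, was at 3.83 (SE 0.998, limma adjusted p = 0.212). Only 4 of 6 intact arrays detected it, against 6 of 6 knockout arrays, so the size of this difference rests in part on background readings. It read 10.49 to 11.25 in knockout tumours, 10.48 and 10.76 in intact replicates 1 and 2, and 4.55, 5.54, 4.57 and 6.60 in intact replicates 3 to 6. Within series 56 its difference was 0.10. Cald1 was at 0.44 and Mustn1 at 0.35.

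Vessel and neighbouring cell markers are given for the same tumours. Of 12 endothelial markers 11 were tested (7 above 0, median 0.28, 0 called), led by Slco1a4 (1.02), Tie1 (0.48), Emcn (0.48) and Cdh5 (0.45), and their summed normalized intensity was 6341 to 11392 in knockout and 4962 to 9316 in intact tumours. Rgs5 and the endothelial claudin gene Cldn5 ran against each other, with r = -0.56 (permutation p = 0.0569, adjusted 0.0759) and rho = -0.78 (permutation p = 0.00455, adjusted 0.0167). That r was -0.56 also without knockout replicates 4 and 5, -0.51 in knockout tumours, -0.83 in intact tumours, and -0.75 and -0.80 within the first and the last 6 columns. With the mean of the 11 tested endothelial markers, Cldn5 among them, Rgs5 had r = -0.47. Relations of Rgs5 with the other single endothelial markers were not tested. In the recruitment list 12 of 14 genes were tested (9 above 0, median 0.21, 0 called), among them the TGF-beta co-receptor Eng at 0.73, the vasoconstrictor gene Edn1 at 0.97, Jag1 at 0.23 and Tgfbr1 at 0.34.

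Markers of neurons, astrocytes and myelin were lower on average in knockout tumours, as Rgs5 was, with 0 called. The 5 of 7 neuron markers tested, among them Camk2a (-1.47), Rbfox3 (-1.39), Nrgn (-1.21) and Stmn2 (-1.48), had a median of -1.39 (5 below 0), with a summed intensity of 803.1 to 9461 in knockout and 1279 to 17572 in intact tumours. The 6 astrocyte markers, among them Slc1a2 (-0.93), Slc1a3 (-0.64), Aldh1l1 (-0.99) and Gja1 (-0.80), had a median of -0.77 (6 below 0), with sums of 9642 to 32207 in knockout and 18987 to 38948 in intact tumours. The part of these cell types, and of age, in the pericyte differences was not tested beyond a fit with age as a covariate, which gave -1.09 (SE 0.58) for Rgs5 and -0.43 (SE 0.33) for Kcnj8 (limma adjusted p = 0.867 and 0.889). Of 10 fibroblast markers 7 were above 0 (median 0.30, 0 called), with Fbln1 at -0.73, Col1a2 at 0.43, Col6a1 at 0.61 and Ogn at -0.37. Of 7 microglia and macrophage markers tested, of 8 listed, 5 were above 0 (median 0.025, 0 called), P2ry12 being at -2.13, Itgam at -0.61, Aif1 at 0.52 and Tmem119 at 0.14, with sums of 1695 to 5236 in knockout and 2852 to 6256 in intact tumours. Anpep and Cspg4, which these or progenitor cells can also express, cannot be assigned to mural cells in bulk tissue.

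**Figure D5:**
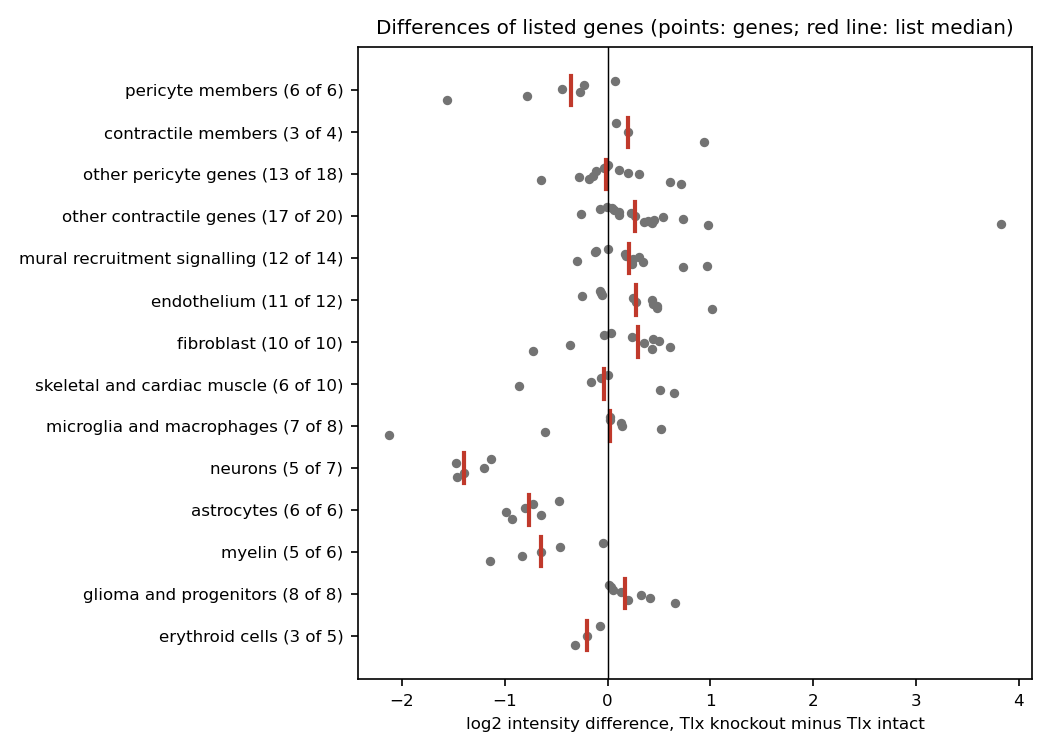
Difference in log2 intensity, Tlx knockout minus Tlx intact (horizontal axis), for every tested gene of the members and of 12 further lists (rows, with tested and listed numbers). Points are genes and red lines list medians. Medians are -0.35 for the pericyte members and 0.20 for the contractile members, the further contractile genes lie mostly above 0, and all neuron and astrocyte genes lie below 0.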

How the data were processed

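RNA of 12 gliomas was extracted with Trizol and a column clean-up and hybridised as biotinylated cRNA, per the labels' protocols. The authors deposited, per the file headers, linear signal intensities with detection p-values, 45135 probes an array, without normalization between arrays. A second deposited table holds intensities that the authors normalized by a method not given in the sources used here, and it served as an alternative. Its column medians were 145.2 to 150.2, it is on a linear scale and not centred, and it holds 45134 probes. Columns were matched to animals by the label numbers. The number of columns of other samples was 0.

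Gene names came from the platform annotation, updated through Entrez identifiers (assembly GRCm38.p6): 34772 probes had 1 gene, 18 several and 10345 none. Signals were normalized with neqc in limma 3.58.1 (R 4.3.3), which uses those p-values to correct background (offset 16), then quantile-normalizes and takes log2. Values near background are compressed by the offset. Detection p below 0.05 on at least 3 of 12 arrays left 28002 probes. Groups were compared by limma's moderated test (two-sided), adjusted by Benjamini-Hochberg over 14155 genes. Further probes were tested in a fit over all 28002 probes, from which the intervals in the plot of probes come. The fit was tested on simulated data. Correlations were tested with 100000 permutations (two-sided, SciPy 1.17.1) and adjusted over 4 relations. Arrays were permuted across both groups, so group differences enter those p-values. Every member is named, with the 4 genes of smallest unadjusted p of each further list, and the 5 genes most like Rgs5 and Acta2. Pdgfrb and Cldn5 are named besides. The members, lists and tests were chosen with earlier results of these data known. Each array is a separate animal. Replicates were numbered in order of deposition and pair no animals. Alternatives comprised background, offset, normalization, the authors' table, filters, probe averaging, column and label series as blocks, age, array weights and leaving out each array.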

Additional observations from a re-analysis of the deposited data

Results flagged for a closer look

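Abcc9 in knockout replicate 4 stood apart from its group. It read 5.97 log2 units there, against 6.50 to 6.78 in the other 5 knockout tumours, a gap of 0.66 of the group's whole range. This was 1 of 22 groups of 6 examined (9 genes and 2 means in each group), and chance alone marks about 1 in 20 such groups. The difference of Abcc9 without that array was -0.15.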

How the results depend on the processing

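No paired analysis was possible because the labels give no replicate numbers shared between the groups. No member was called in any alternative run. Rgs5 kept its negative difference in 23 of 23 alternatives (-1.97 to -0.62, adjusted p 0.0601 to 0.999), as did Kcnj8 in 24 of 24 (-0.96 to -0.31, adjusted p 0.184 to 0.999) and Vtn in 24 of 24 (-1.03 to -0.011). Acta2 was positive in 23 of 24 (-0.56 to 1.72, adjusted p 0.208 to 0.999) and Des in 23 of 24 (-0.40 to 0.60). With detection required on all 12 arrays Rgs5, Anpep and Tagln had no value. With the label series as a block, which compares 3 knockout with 2 intact animals, signs turned for Acta2 (-0.56), Tagln (-0.42), Des (-0.40), Anpep (-0.20) and Higd1b (0.17), the contractile median became -0.42 and the pericyte minus contractile difference 0.080. Leaving that series out, chosen after seeing the data, gave -1.59 for that difference. Tagln also turned to -0.25 with age and -0.090 with array weights, and Abcc9 to 0.10 with averaged probes. The causes were not tested. Without 1 array the ranges were -1.86 to -1.30 for Rgs5, -0.88 to -0.62 for Kcnj8, 0.69 to 1.29 for Acta2, -0.15 to 0.20 for Tagln, -0.016 to 0.18 for Anpep and -0.39 to 0.087 for Higd1b, and -1.13 to -0.79 for pericyte minus contractile. The tumour means and Pdgfrb without single arrays were likewise added after seeing the data. Without Des the pericyte minus contractile difference was -1.04 and without Anpep and Vtn -1.11. No run left out Rgs5 or Acta2, the genes of widest difference of each kind.

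Over all genes the count called higher, 1, became 0 without background correction, with the authors' table, with detection on all 12 arrays, with averaged probes, with either block, with age and with array weights, and 2 with an offset of 50 and with no filter on dim probes. The count called lower, 1, became 0 with detection on all 12 arrays. Without series 56 the counts were 110 and 21, and without 1 array they ran from 0 to 90 higher and from 1 to 14 lower, the top of both without intact replicate 1. Signals near background limit Tagln, Anpep and Myh11 most. Raw signals of Rgs5, Kcnj8, Des and the tested Abcc9 probe were also low. Without background correction their differences were -0.63, -0.31, 0.078 and -0.12, so the sizes depend on that correction. The number of arrays limits the precision of all members.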

Other observations

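The further Abcc9 probe ILMN_2623859, singled out after its values were seen, followed Acta2 more closely than it followed Rgs5. Its Pearson r over the 12 arrays was 0.82 with Acta2 and -0.51 with Rgs5, whereas the tested Abcc9 probe had 0.22 and 0.52. It read 4.91 to 6.16 in knockout tumours and 6.27 and 5.75 in intact replicates 1 and 2, against 4.24 to 4.44 in intact replicates 3 to 6, the same arrays in which Acta2 and Csrp1 were low.

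The summed signal of erythroid markers varied widely between tumours, and blood content itself was not measured. Of 5 erythroid markers 3 were tested (Slc4a1 at -0.32, Hba-a1 at -0.20 and Alas2 at -0.07, 0 called), and their summed intensity was 1430 to 28168 in knockout and 1420 to 30421 in intact tumours. The 5 of 6 myelin markers tested had a median of -0.64 (5 below 0, with Mog at -1.14, Mag at -0.84, Mobp at -0.64 and Mbp at -0.46), with sums of 7851 to 37924 in knockout and 16027 to 45530 in intact tumours.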
